A study of Arabidopsis thaliana with 4 samples.

Results

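Among the genes measured by a probe of their own in apetala1 and wild-type inflorescences of Arabidopsis thaliana, 4 genes linked to lipids were examined, namely AT4G19380, AT5G45950, AT5G47350 and AT4G12530. They were chosen by name after their ratios on these same arrays were known, and they are 4 of 5265 genes tested with a probe of their own and 4 of 25415 features in all. Each has 1 probe that the platform annotation assigns to that locus alone. All values of the main contrast below therefore describe the 4 genes and test nothing about them.

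Each of 4 two-colour oligonucleotide arrays, named set 1 to set 4 and counted as replicates 1 to 4, received RNA of both genotypes. Per the labels, apetala1 RNA was in channel 1 on sets 1 and 3 and in channel 2 on sets 2 and 4. The labels give neither the mutant allele, the strain background, the age of the plants nor the number of plants pooled, and whether each set used its own plants is not stated, so a p-value here covers no more than the spread between arrays, which may be technical. With 4 arrays the precision of a ratio is limited.

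APETALA1 is a MADS-box transcription factor that specifies floral meristems and the outer whorls of the flower, and strong apetala1 mutants lack petals and form leaf-like organs in place of sepals. The epidermis of floral organs is covered by a cuticle, a layer of the polyester cutin embedded in and overlaid by waxes. Both are built from fatty acids that are elongated, reduced or oxidised, esterified and exported, and lipid-transfer proteins are small secreted or membrane-anchored proteins that bind such lipids. Flowers also make lipids in the tapetum for the pollen wall and pollen coat.

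A value is the log2 ratio of the channels of 1 array. The sources do not say which channel was the numerator, so it is unknown whether a positive value means more RNA in apetala1 or in wild type. Ratios are given in the sign of sets 1 and 3, with the sign of sets 2 and 4 turned, and values at the deposited limits of plus and minus 6.64, the log2 of 100, were left out. That orientation was settled in earlier work after the values had been seen. Before turning, arrays of opposite channel order correlated across features at -0.36, -0.21, -0.07 and -0.07, and arrays of the same order at 0.34 and 0.25. None of the values of the 4 genes was at a limit. A ratio carries no level, so the 4 genes cannot be ranked by abundance, and in whole inflorescences fewer cells of a type and less RNA per cell cannot be told apart.

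The 4 genes had mean log2 ratios from 1.86 to 2.41 and a median of 1.99 over the 4 means. All 16 single values lay between 1.21 and 3.23 and so on one side of 0. Over all 25415 features the median was -0.02, the quartiles were -0.18 and 0.17, and 47.0% were positive. At least 2-fold positive on all 4 arrays were 0.299% of the 24398 features measured on every array. The 4 genes are among them because that pattern was how they had come to notice, so nothing is read from that share.

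**Figure D1:**
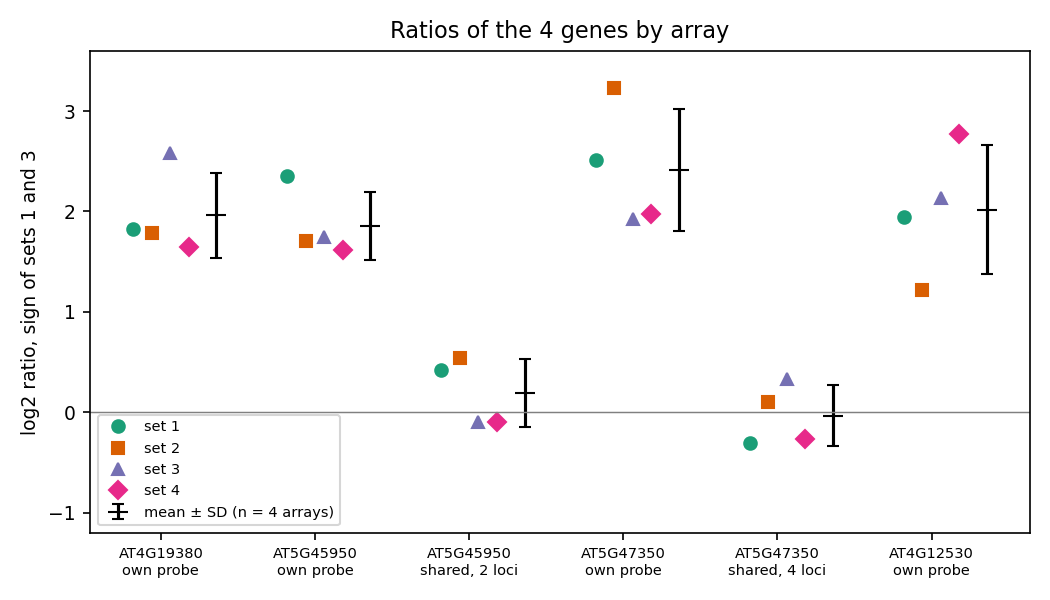
Log2 ratio of apetala1 and wild-type RNA (vertical axis, sign of sets 1 and 3) for the own probe of each of the 4 genes and for the 2 probes that AT5G45950 and AT5G47350 share with other loci. Symbols are the 4 arrays and black bars the mean ± SD of 4 arrays. The own probes lie between 1.21 and 3.23, and the shared probes lie around 0.

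AT4G19380 belongs to the long-chain fatty alcohol oxidase family. Enzymes of that kind, first described in Candida yeasts, oxidise long-chain alcohols to aldehydes. Sets 1 to 4 gave it log2 ratios of 1.83, 1.78, 2.58 and 1.65. Set 3 was the high array and the other 3 lay close together. The mean was 1.96 ± 0.42 (SD, n = 4), a 3.89-fold difference between the RNAs, with single arrays from 3.14-fold to 5.98-fold.

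AT5G45950 belongs to the GDSL lipase family, a large plant family of esterases named for the residues around its catalytic serine, some members of which build or break down cutin. Its log2 ratios on sets 1 to 4 were 2.36, 1.70, 1.75 and 1.62. Here set 1 was the high array. The mean of 1.86 ± 0.34 (SD, n = 4), or 3.62-fold, came with the smallest spread of the 4 genes.

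AT5G47350 is named by its locus alone in the sources used here. General knowledge of the Arabidopsis annotation places it among alpha/beta hydrolases related to palmitoyl protein thioesterases, which in mammals remove fatty acyl groups from proteins in the lysosome. The log2 ratios of this gene were 2.51, 3.23, 1.93 and 1.97 on sets 1 to 4. Set 2 was the high array. The mean was 2.41 ± 0.61 (SD, n = 4), or 5.31-fold, the largest mean of the 4 genes and rank 3 among the 5265 genes with a probe of their own.

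AT4G12530 is likewise named by its locus alone, and general knowledge places it among the proteins with a lipid-transfer fold encoded in a cluster on chromosome 4, to which AZI1 and EARLI1 belong. On sets 1 to 4 it had log2 ratios of 1.94, 1.21, 2.14 and 2.77. Set 4 was high and set 2 low. The mean was 2.02 ± 0.64 (SD, n = 4), or 4.04-fold, and single arrays ran from 2.32-fold to 6.83-fold. This gene had the widest range between arrays, 1.56 on the log2 scale, against 0.74 for AT5G45950.

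No single array was the high one for all 4 genes. Each gene had its highest ratio on a different array, AT5G45950 on set 1, AT5G47350 on set 2, AT4G19380 on set 3 and AT4G12530 on set 4. The median over the 4 genes was 2.15, 1.74, 2.03 and 1.81 on sets 1, 2, 3 and 4. The spread between arrays was above the median spread of all features, an SD of 0.29, for each of the 4, and the SD of AT4G12530 exceeded that of 87.7% of features. In the order of their means, AT5G47350, AT4G12530, AT4G19380 and AT5G45950, neighbouring genes differed by less than their SDs.

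The arrays differed in how far a ratio of a given size stood out. On set 3, where 1% of features exceeded 2.60, the 2.58 of AT4G19380 was rank 262 of 25123 features. On set 4, where 1% exceeded 1.39, the 1.65 of the same gene was rank 150 of 25438. AT5G47350 was rank 11 of 25183 features on set 2, and AT4G12530 was rank 25 of 25438 on set 4. AT4G12530 was lowest on set 2, at rank 564. The lowest of the 16 percentiles within an array was that of AT5G45950 on set 3, 97.7.

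**Figure D2:**
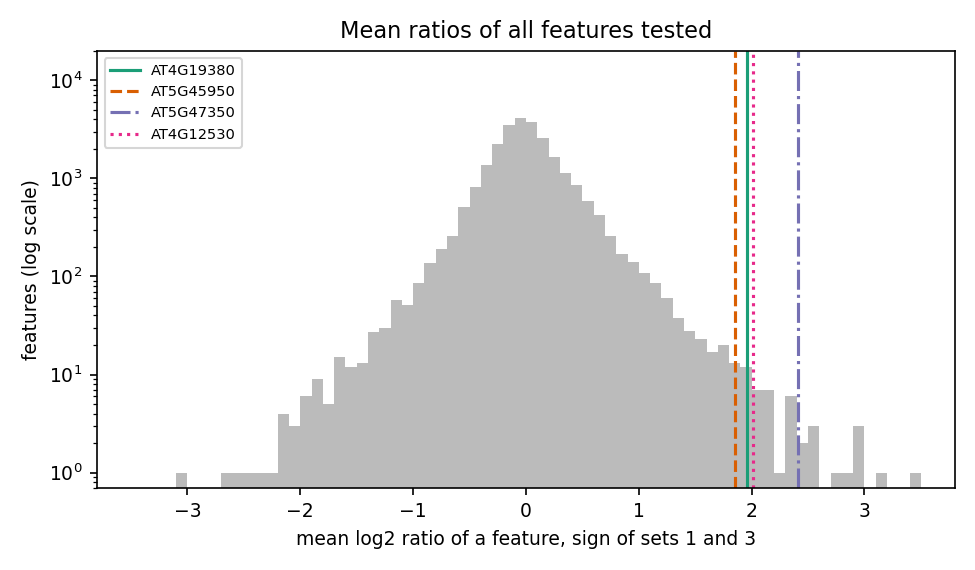
Number of features (vertical log axis) by mean log2 ratio (horizontal axis, sign of sets 1 and 3) for all 25415 features tested, with vertical lines at the means of the 4 genes. The lines lie between 1.86 and 2.41, in the right tail of a distribution whose median is -0.02.

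In the limma fit over all features, 3 of the 4 genes had an adjusted p below 0.05 (Benjamini-Hochberg) and AT4G12530 did not. The same fit called 56 of 25415 features, or 0.220%, with 0.197% called on the positive and 0.0236% on the negative side, and 12 of the 5265 genes with a probe of their own, or 0.228%. The rule used this contrast, so the count of 3 is a description only. These calls changed with the processing. With a term for channel order or with limit values kept, limma called 0 of the 4, and each of these fits called 1 feature in all. Without replicate 3, 1 gene was called, namely AT4G19380, among 30 features. Without replicate 1, 2 or 4, 0 of the 4 were called, where 0, 1 and 38 features were called in all. Scaling the arrays to equal spread left AT5G45950 and AT5G47350 called, among 40 features, and quantile normalization left AT4G19380, among 18. With robust eBayes all 4 were called, among 109 features or 0.429%. All 4 were also called when the fit was limited to the 24398 features measured on all 4 arrays, among 140 features. The number of the 4 called is therefore read only beside the number called in all. Without 1 array the means stayed between 1.69 and 2.57.

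The choice of genes positive on all 4 turned arrays bounds how far the channel orders can differ, so the values by channel order are a description. As deposited, the mean of sets 1 and 3 was 2.20 for AT4G19380, 2.05 for AT5G45950, 2.22 for AT5G47350 and 2.04 for AT4G12530. After turning, the mean of sets 2 and 4 was 1.72, 1.66, 2.60 and 1.99 for the same genes. The channel order part, which is the mean of the 4 deposited values, was therefore 0.24 ± 0.17 (SE) for AT4G19380, 0.20 ± 0.15 for AT5G45950, -0.19 ± 0.25 for AT5G47350 and 0.02 ± 0.27 for AT4G12530. The limma fit with that term called 0 of 25415 features for channel order and 1 for the genotype ratio.

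**Figure D3:**
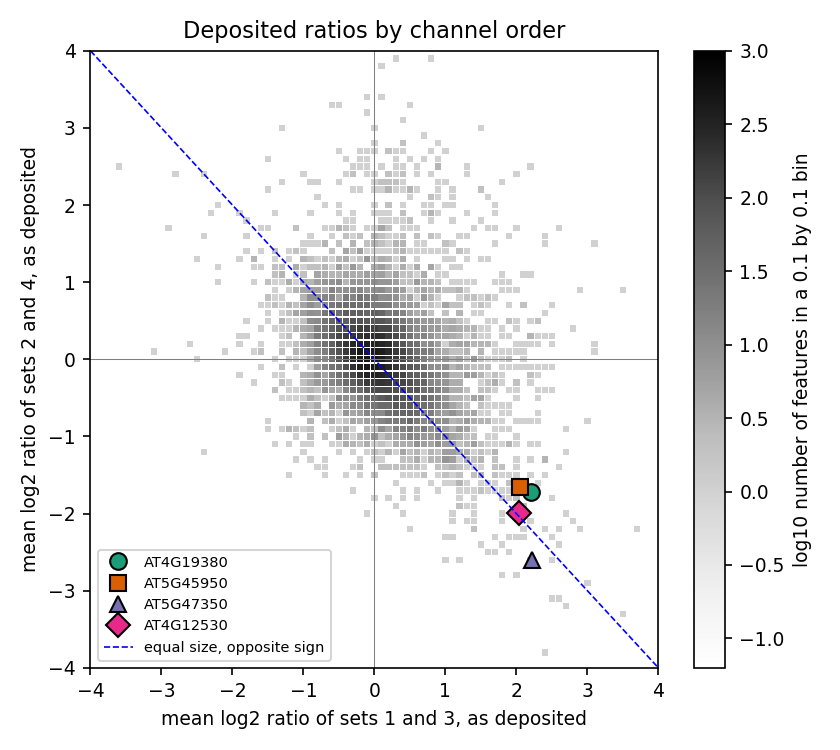
Mean deposited log2 ratio of sets 1 and 3 (horizontal axis) against that of sets 2 and 4 (vertical axis, not turned), with grey squares for the number of features in each bin on a log10 scale and coloured symbols for the 4 genes. The 4 genes lie at 2.04 to 2.22 on the horizontal axis and near the dashed line on which both channel orders have equal size and opposite sign. Of 24398 features measured on all arrays, 24397 fall inside the axes.

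Other probes on the arrays name 2 of the 4 loci together with related genes, and the choice of the genes did not use the values of these probes, although it used those of the own probes set beside them. The probe annotated to both AT5G45950 and AT5G45960, which lie next to each other on chromosome 5 and are both GDSL lipases, had log2 ratios of 0.42, 0.54, -0.09 and -0.10 on sets 1 to 4. Its mean was 0.19 ± 0.34 (SD, n = 4; limma adjusted p = 0.586). The own probe of AT5G45950, chosen for its positive values, lay 1.17 to 1.93 above it on the log2 scale. A further probe, annotated to AT5G45960 and AT1G06990, had -0.29 ± 0.31 (limma adjusted p = 0.410).

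AT5G47350 shares a probe with AT5G47340, AT5G47330 and AT3G60340. That probe had log2 ratios of -0.31, 0.10, 0.33 and -0.26 on sets 1 to 4, on both sides of 0, with a mean of -0.03 ± 0.30 (SD, n = 4; limma adjusted p = 0.934). The own probe of AT5G47350, chosen in the same way, lay 1.60 to 3.12 above it. A probe for AT5G47340, the nearest protein-coding gene on one side of AT5G47350, and AT5G47330 had 0.21, 0.21, 0.34 and 0.31, a mean of 0.27 ± 0.07 (limma adjusted p = 0.303). AT3G60340, a palmitoyl protein thioesterase gene with a probe of its own, had 0.14 ± 0.32 (limma adjusted p = 0.703). It was the only such gene among 6 other entries for these thioesterases and their neighbours. With probes shared only among those entries counted, 4 of 5 features were positive and 1 negative around a median of 0.04. In limma 0 were called, where 0.220% of all features were. The negative probe, annotated to AT4G17480 and AT4G17470, had -0.75 ± 0.88 (limma adjusted p = 0.336), with -1.96 on set 2. How much signal each locus gives a shared probe was not tested, and the probe sequences were not used here, so which of the probes reports AT5G47350 or AT5G45950 more faithfully cannot be told from these values.

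The family relatives of the 4 genes were listed from general knowledge, with earlier results of these data known. The 4 genes, chosen for large positive ratios, were taken out of their families. Counts and largest means of the relatives therefore describe what was left after that removal, and they are not an unselected comparison. Of 100 other GDSL lipase entries, 24 had a probe of their own. Their log2 ratios were positive for 15 and negative for 9, and the median of 0.27 compares with -0.03 over all genes with a probe of their own. None of the 24 passed in limma, and none did with robust eBayes, where 0.220% and 0.429% of all features did. At an unadjusted p under 0.05 there were 10, of which 8 were positive and 2 negative, while 16.3% of all features had such a p, 9.18% on the positive and 7.14% on the negative side. The largest means were 1.14 ± 1.07 for AT4G16220, measured on 3 arrays (limma adjusted p = 0.292), and 1.08 ± 0.93 for AT5G42170 (0.238), and both genes reached 2.06 on set 4. AT5G45910 was the most negative at -0.89 ± 0.43 (0.135), and it was negative on all 4 arrays. With probes shared only among GDSL lipases counted too, a choice made after the annotation was seen, 38 of 65 features were positive and their median was 0.14, with 0 called in limma. An unadjusted p under 0.05 was found for 20 of them, 12 positive and 8 negative.

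Within the proline-rich lipid-transfer-like proteins, which form the family of AT4G12530, 5 of 25 other entries had a probe of their own. Of these 1 was positive and 4 were negative, and the median was -0.30, with -0.17 without replicate 2 and -0.46 without replicate 3. No gene of the 5 was called in limma or with robust eBayes, where 0.220% and 0.429% of all features were. An unadjusted p under 0.05 was found for 1, on the negative side, where 7.14% of all features had one. AT4G22490 had 0.29, -1.52, -0.75 and -1.64 on sets 1 to 4, a mean of -0.91 ± 0.89 (limma adjusted p = 0.275). AT4G22460 had 0.88 ± 1.60 on the 3 arrays with a value (0.527), with 2.50 on set 4, and AT4G15160 had -0.35 ± 0.56 (0.491). The probe for AT4G12490 and AT4G12500, members of the same gene cluster as AT4G12530, was negative on all 4 arrays at -0.29, -0.77, -2.15 and -0.38, with a mean of -0.90 ± 0.86 (limma adjusted p = 0.269). Probes for AT4G00165 and AT2G45180, at 0.65 ± 0.60 (0.275), and for AT5G46900 and AT5G46890, at 0.40 ± 0.25 (0.257), were positive on all 4 arrays. With such shared probes counted, 3 of 8 features were positive and 5 negative around a median of -0.23, with 0 called in limma and 4 at an unadjusted p under 0.05, 2 in each direction.

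No other fatty alcohol oxidase gene had a probe of its own. A probe annotated to AT1G03990 and AT4G28570, both of that family, and to AT1G03982 had log2 ratios of -0.38, 0.02, -0.57 and 0.24 on sets 1 to 4. Its mean was -0.17 ± 0.37 (SD, n = 4; limma adjusted p = 0.654).

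**Figure D4:**
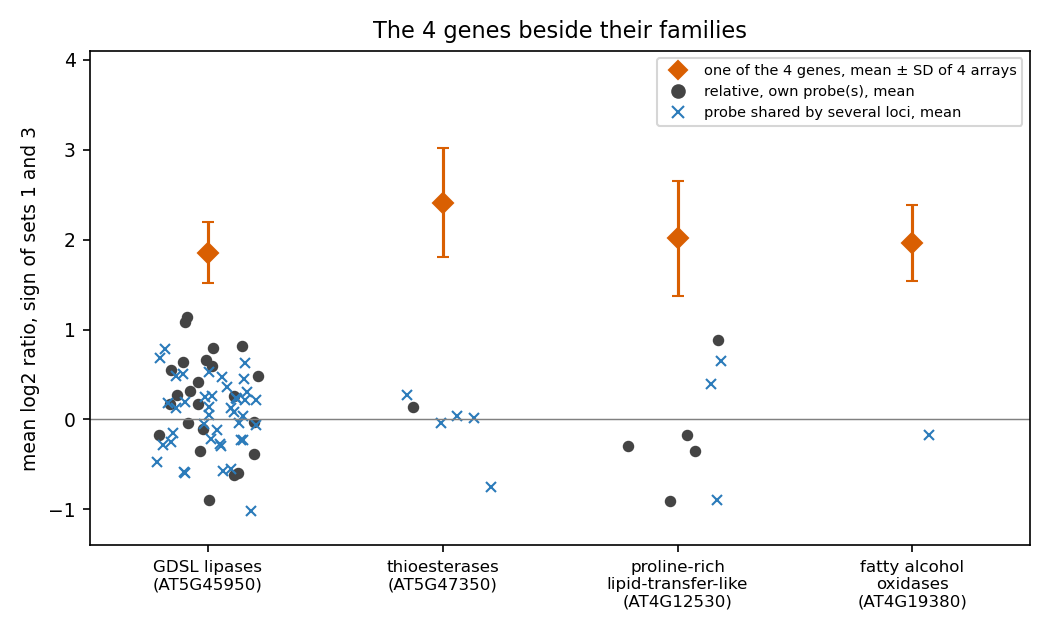
Mean log2 ratio (vertical axis, sign of sets 1 and 3) of the 4 genes (orange diamonds, mean ± SD of 4 arrays), of their relatives with probes of their own (dots) and of probes shared by several loci (crosses), by family. The highest relative with a probe of its own is at 1.14 among GDSL lipases and at 0.88 among lipid-transfer-like proteins.

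The pathways that make the cuticle were hardly measured by probes of 1 gene. Of 26 wax, 22 cutin, 13 suberin, 16 sporopollenin and pollen coat, 12 classical lipid-transfer protein and 10 beta-oxidation entries, 0 had one. The label of lipid and cuticle genes therefore rests on the families of the 4 genes and not on the pathway around them. One wax probe, annotated to WSD1 and AT2G38995, wax ester synthase genes of the same family, was negative on all 4 arrays at -0.73, -1.72, -0.95 and -0.49. It had a mean of -0.97 ± 0.53 (SD, n = 4), opposite in sign to the 4 genes, and did not pass in limma (adjusted p = 0.150).

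In plastid fatty acid synthesis, 1 of 18 entries had probes of its own. This was FATB, AT1G08510, the thioesterase that releases saturated fatty acids for export from the plastid, with log2 ratios of 0.59, 0.71, 0.45 and 0.52 on sets 1 to 4. The arrays agreed closely, with a mean of 0.57 ± 0.11 (SD, n = 4), or 1.48-fold, and the gene did not pass over all features (limma adjusted p = 0.124). A probe annotated to FATB together with AT4G13050 and AT3G25110 had the other sign on all 4 arrays, with -0.21 ± 0.10 (0.405). The probe shared by AT4G13050 and AT3G25110 alone was at -0.24 ± 0.19 (0.406).

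Taking all lists together and leaving out the 4 genes, 31 of 246 entries had a probe of their own. Their means ran from -0.91 to 1.14 around a median of 0.17, and 18 were positive and 13 negative. The median was 0.015 without replicate 3 and 0.065 without replicate 4. In limma and with robust eBayes 0 of the 31 were called, where 0.220% and 0.429% of all features were. An unadjusted p under 0.05 was found for 12, 9 positive and 3 negative, against 16.3% of all features. Of the 29 measured on all arrays, 10 were positive and 2 negative on every array, against 13.4% and 13.8% of all features. GDSL lipases supply most of these genes, and genes of a family are not independent of each other.

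Tissues that could carry lipid genes were covered only by shared probes. Of 20 marker entries for epidermis, tapetum, mature pollen and trichomes, 0 had a probe of their own, and 9 shared probes named one, of which 8 were tested. Their means ran from -0.65 to 0.66, with 0 called in limma or robust eBayes, where 0.220% and 0.429% of all features were. At an unadjusted p under 0.05 there were 4, of which 3 were positive and 1 negative, against 16.3% of all features. The 5 tested probes of mature pollen genes, each of which names other loci too, were all positive on average, from 0.19 to 0.66. AGL66 (AT1G77980) and VGD1 (AT2G47040) are each named by more than 1 of these probes, so the probes are not separate genes. Both probes naming the tapetum gene A9 (AT5G07230) also name AT5G62080. They were at -0.56 ± 0.78, for the probe that names AT5G52160 as well, and at -0.65 ± 0.64. The first ran from -1.65 on set 1 to 0.20 on set 3. The epidermis probe, naming ACR4 (AT3G59420) and AT5G46080, was at 0.08 ± 0.30 (limma adjusted p = 0.816). The part of these tissues in the ratios of the 4 genes was not tested.

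Within 2 genes on either side of the 4 loci, 3 neighbours had a probe of their own. AT4G12540, beside AT4G12530, had -0.37 ± 0.15 (limma adjusted p = 0.233). AT5G47360, beside AT5G47350, had 0.08 ± 0.33 (0.833). AT4G19360, near AT4G19380, had 0.41 ± 1.62 on the 3 arrays with a value (0.780).

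The genes with the most similar values, by Euclidean distance over the 4 turned arrays among 5050 other genes measured on all of them, were mostly genes of other families with similarly large ratios. The similar size follows from the measure, since the 4 genes were chosen for large positive values on the same arrays. AT5G45950 lay 0.40 from UGT85A5, a UDP-glycosyltransferase gene whose mean was 1.84 ± 0.45, 0.41 from AT1G57980 at 2.02 ± 0.36, and 0.93 from AT1G20180 at 1.49 ± 0.30. AT4G19380 lay 0.88 from UGT85A5, 0.99 from AT5G45950 and 1.16 from AT1G57980. AT4G19380 and AT5G45950 were the closest pair within the 4.

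AT5G47350 and AT4G12530 were the least alike of the 4, at a distance of 2.25. The nearest genes to AT5G47350 were AT4G15750 at 0.67, with a mean of 2.30 ± 0.89 and its highest value also on set 2, AT2G30810 of the GASA family at 0.82 and AT1G57980 at 1.25. AT4G12530 was nearest to the terpene synthase gene AT3G25810 at 0.77, which had its highest value, 3.20, on set 4 as well, then to AT3G55870 at 1.16 and to AT4G19380 at 1.34. With the Pearson correlation over the same 4 arrays in place of distance, other genes came first for every one of the 4, with correlations above 0.99 and means from -0.49 to 1.19, so likeness over 4 arrays depends on the measure.

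**Figure D5:**
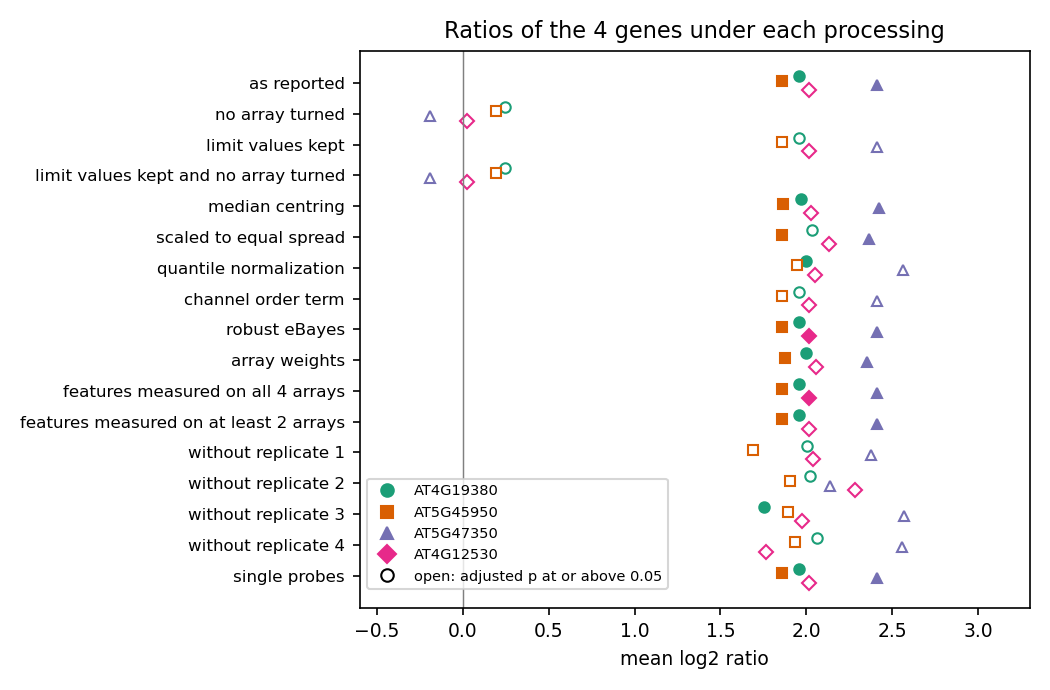
Mean log2 ratio (horizontal axis) of the 4 genes under each processing (rows). Filled symbols have a limma adjusted p below 0.05 over all features and open symbols do not. Where sets 2 and 4 were turned the means stay between 1.69 and 2.57. With no array turned they are the channel order part and lie between -0.19 and 0.24.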

How the data were processed

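For every array the authors deposited 1 log2 ratio per probe, processed and normalized by a published method, per the labels. Software, background correction, dyes and numerator are not stated there. The log base follows from the limits of plus and minus 6.64, the log2 of 100. The deposited medians over probes were -0.00, 0.06, 0.04 and 0.03 on sets 1 to 4. Centring by the authors is not stated.

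Control rows and empty spots were left out, which left 26474 probes, of which 26367 to 26436 had a value on an array. The platform annotation, matched by Entrez ID to the gene table of TAIR10.1, named a single gene for 5784 probes (5756 found in the table), more than 1 for 7497 and no gene for 13193. The files name no genome build, so no coordinates are given. Probes of 1 gene were averaged. Features with values on at least 3 arrays were tested against 0, two-sided, by limma 3.58.1 (lmFit, eBayes; R 4.3.3), and p-values were adjusted by Benjamini-Hochberg over all 25415 features. On data simulated for this comparison over 25415 features, 65 of 68 features given a log2 change of 2 were called, 29 of 63 given 1, 0 of 69 given 0.5, and 11 unchanged ones. The simulated noise was normal, independent between arrays and features, and drawn at SDs that limma had already shrunk towards a common value. Real SDs vary more between features, so these counts may overstate what is detected in the data. In this single simulated run, the 11 unchanged features called were a larger share of all calls than the 0.05 aimed at.

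The 4 genes and the gene lists were chosen with earlier results of these data known, and 244 of the 246 list entries other than the 4 genes were found in the gene table. Named genes are the 4 genes, the measured relatives and list genes (of lists with over 4, the 3 with the largest absolute mean), the 3 nearest by distance and measured neighbours. WSD1 and marker probes, and shared probes in general, were named after the annotation was seen. The planned search for relatives by protein sequence and for promoter motifs was not made, because no sequences were used here.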

Additional observations from a re-analysis of the deposited data

Results flagged for a closer look

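One array stood apart from the other 3 in 1 of 21 results checked by Dixon's ratio, where chance gives about 1 in 20. This was AT3G25810, the gene nearest in values to AT4G12530, with a log2 ratio of 3.20 on set 4 against 1.64 to 1.84 on the other sets. Of the 4 lipid genes none passed that limit, although set 1 of AT5G45950, at 2.36, had a ratio of 0.824 and set 3 of AT4G19380, at 2.58, one of 0.811.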

How the results depend on the processing

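The signs given here depend on turning sets 2 and 4, where apetala1 RNA was in channel 2 per the labels. With no array turned, a mean of 4 values averages opposite channel orders. It is then the channel order part and not a second estimate of the genotype ratio, so a value near 0 does not test the sign. With no array turned, with limit values left out or kept, the means were 0.24 for AT4G19380, 0.20 for AT5G45950, 0.023 for AT4G12530 and -0.19 for AT5G47350, and the medians were 0.025 or 0.039 for the other GDSL lipases and 0.19 or 0.24 for the other lipid-transfer-like proteins. Features called were then 0, or 152 with limit values kept. Named genes and probes whose unturned mean had the other sign in both fits were AT3G60340 (-0.037), the shared probes of AT5G45950 (-0.028) and AT5G47350 (0.046), AT4G22490 (0.68), AT4G15160 (0.24), AT5G42170 (-0.063), AT5G45910 (0.23), FATB (AT1G08510, -0.049), AT4G15750 (-0.49) and AT3G25810 (-0.33), and, with limit values left out, AT4G16220 (-0.23) and AT4G22460 (-0.32). Such a mean also averages opposite channel orders, so its sign is not a changed direction of the genotype ratio. With limit values kept and arrays turned, AT4G16220 had -0.80, AT4G19360 -1.36 and AT4G22460 2.32, since each then includes a value at a limit. The 56 calls became 1 with limit values kept, 18 with quantile normalization, 1 with a channel order term, 109 with robust eBayes and 140 among features measured on all 4 arrays, and ran from 0 to 38 when 1 replicate was left out (0, 1, 30 and 38 without replicates 1, 2, 3 and 4). Leaving out 1 replicate gave 1.75 to 2.06 for AT4G19380, 1.69 to 1.94 for AT5G45950, 2.14 to 2.57 for AT5G47350 and 1.76 to 2.28 for AT4G12530. The median of the other GDSL lipases was 0.12 to 0.30 across those fits, 0.12 without replicate 3. It was -0.46 to -0.17 for the other lipid-transfer-like proteins and 0.015 to 0.25 for all lists together. The fits without 1 replicate and with the channel order term have fewer residual degrees of freedom. Those without 1 replicate have the same number of them and called from 0 to 38 features. What changed the number of calls was not tested. Between 40 and 57 calls came from median centring, equal spread, weighted arrays, unaveraged probes and a minimum of 2 arrays. Relatives at 50 percent identity were not run, since no protein sequences were used here. Each ratio already pairs the genotypes within an array. No paired analysis was possible because, beyond that pairing, the 4 arrays form 1 group with no number to block on.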
